A study of Mus musculus with 2 samples.

Results

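The genes described are 9 complement components made by fetal mouse liver: C3, Hc (the mouse gene for component C5), C2, C4b, Cfb, Cfi, C8a, C9 and Masp1. They were taken by symbol and matched to their Ensembl gene identifiers, and all 9 of 9 were found among 43346 gene rows. Of these rows 17906 held at least 10 estimated counts over both libraries, the 9 complement genes among them. The series has 1 group of 2 libraries, labelled biological replicates 1 and 2, of liver from C57BL/6J embryos at embryonic day 14.5. Each library came from littermates pooled over both sexes, and the number of litters is not stated. The RNA was polyadenylated, depleted of ribosomal RNA and longer than 200 nt, and was sequenced as strand-specific read pairs of 101 nt with added spike-in RNA. No treatment, genotype or time was compared, so the values below are levels in this tissue and differences between its 2 libraries.

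Complement is a cascade of plasma proteins that marks and lyses microbes and calls in white cells. It is started by antibody-bound C1 (classical pathway), by sugar-binding lectins with their MASP proteases (lectin pathway) or by slow turnover of C3 (alternative pathway), and all of these end in cleavage of C3, then of C5, and in assembly of a membrane pore. Hepatocytes are known as the main source of most of these proteins in the adult, while C1q and properdin come largely from macrophages and other blood cells.

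The gene tables held 102720906 estimated counts in replicate 1 and 65640929 in replicate 2, so a count of 0 allows up to 0.0292 and 0.0457 CPM (counts scaled to the library total). Levels are in TPM, the authors' transcript abundance corrected for length and library size, by which different genes can be compared. Markers of hepatoblasts and hepatocytes were abundant (10 of 10 reached 1 TPM in both libraries, median 1213 and 992 TPM). Those of red cells (6 of 6) and granulocytes (4 of 4) reached 1 TPM too, at medians of 491 and 486 and of 275 and 224 TPM. Markers of macrophages (8 of 8), endothelium (5 of 5) and stellate and mesenchymal cells (5 of 6) reached 1 TPM at lower medians. These were 9.97 and 11.5, 10.5 and 10.3, and 21 and 12.7 TPM. Of 6 gut and pancreas markers 1 reached 1 TPM. In this bulk tissue fewer cells of a type and less RNA per cell cannot be told apart. Globin genes took 25.6% and 28.1% of the counts in replicates 1 and 2. Intervals and limits below cover counting error only, because they are computed from read counts without a term for variation between libraries. The reads carry no molecular identifiers, so each read is taken as independent.

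The 9 genes together reached 548 TPM in replicate 1 and 428 TPM in replicate 2 (488 ± 84.9, SD, n = 2). Their share of all gene counts was 0.164% (Wilson 95% interval 0.1632% to 0.1647%) in replicate 1 and 0.154% (0.1529% to 0.1548%) in replicate 2. C3 alone gave 54.5% and 58.1% of the counts of the 9. The order by mean TPM ran from C3 over Cfb, Cfi, Hc, C2, C8a, Masp1 and C4b to C9, and the ratio of the highest to the lowest was 171 in replicate 1 and 372 in replicate 2. Every neighbouring pair in this order was separate in both libraries except C8a and Masp1, whose values overlapped. A level of 1 TPM in each library was met by 8 of the 9 genes, 10 TPM by 5, and 100 TPM by 2 (C3 and Cfb).

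**Figure D1:**
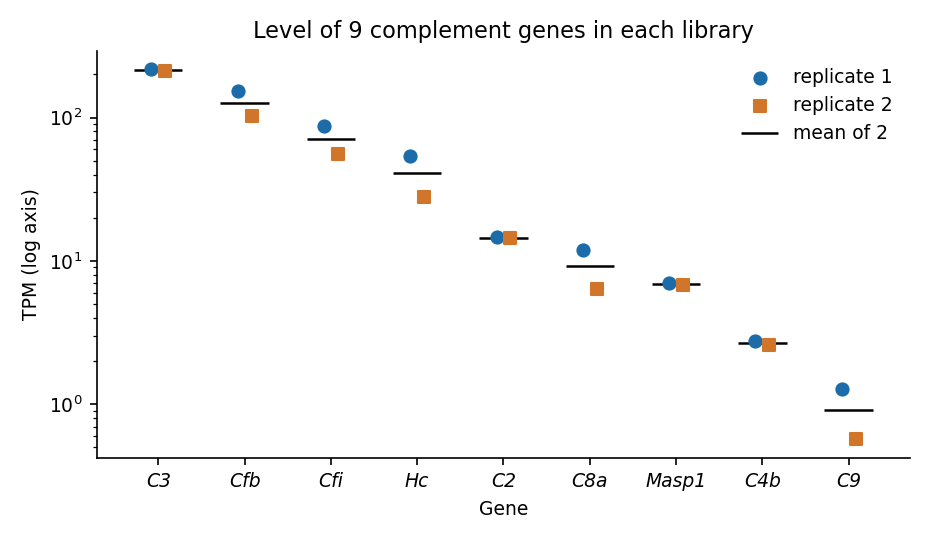
TPM on a log axis for each of the 9 complement genes, ordered by mean; circles are replicate 1, squares replicate 2 and bars the mean of the 2 libraries. C3 lies at 217 and 212 TPM, C9 at 1.27 and 0.57 TPM, and the 2 values of C8a lie on either side of those of Masp1.

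C3 is the central component, whose cleavage deposits C3b on surfaces through an internal thioester. The gene (ENSMUSG00000024164, mm10 chr17:57203970-57228136, minus strand) had 91853 estimated counts in replicate 1 and 58648 in replicate 2, or 217 and 212 TPM (214 ± 3.45, SD, n = 2). Its mean lay above 98.7% of the genes with any count. C3 differed between the libraries by less than counting error can show, with a log2 difference of replicate 2 over replicate 1 of -0.01 (exact 95% interval -0.02 to 0.01). C4b, the classical and lectin pathway relative of C3 that forms their C3-cleaving enzyme with C2, was far lower. C4b (ENSMUSG00000073418, chr17:34728380-34743882, minus strand) had 1558 and 1099 counts, or 2.77 and 2.61 TPM (2.69 ± 0.113, SD, n = 2). The TPM of C3 was 78.3 times that of C4b in replicate 1 and 81.2 times in replicate 2. The ratio was smaller in both libraries with gene counts divided by the effective length of the longest transcript model. C3 then came to 148 and 123, and C4b to 2.39 and 2.19.

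Hc encodes C5, the third relative of this family, which is cleaved to the anaphylatoxin C5a and to C5b, the seed of the membrane pore. It lies on chr2:34983331-35061438 (ENSMUSG00000026874, minus strand) and had 14507 and 7125 counts, or 53.9 and 27.8 TPM (40.9 ± 18.5, SD, n = 2). The longest models of C3, C4b and Hc each have 41 exons. Of the 39 internal exons, C3 shared the exact length of 11 with Hc and of 7 with C4b, and C4b and Hc shared 10. The 5 codons of the thioester site fell in exon 24 of C3 and C4b, and the codons of Hc aligned to them were in its exon 24 too. The stretches are shown because they are the point where the 3 relatives part: the cysteine codon of the thioester is present in C3 and C4b and absent in Hc, which is known to have no thioester. They are GENCODE M21 transcript sequences on mm10, minus strand, at chr17:57215820-57215882, chr17:34734457-34734519 and chr2:35013575-35013637, with the 5 codons in capitals.
C3: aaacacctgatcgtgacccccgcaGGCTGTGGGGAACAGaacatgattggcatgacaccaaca
C4b: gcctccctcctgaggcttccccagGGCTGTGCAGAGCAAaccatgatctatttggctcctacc
Hc: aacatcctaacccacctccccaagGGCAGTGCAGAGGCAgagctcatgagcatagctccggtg

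Cfb and C2 encode the serine proteases that cut C3 within the alternative and the classical and lectin convertases. Cfb (ENSMUSG00000090231, chr17:34856374-34862518) and C2 (ENSMUSG00000024371, chr17:34862604-34898265) lie head to tail on the minus strand of chromosome 17, and the end of C2 is 86 nt from the start of Cfb. Both longest models have 18 exons, and 6 of the 16 internal exons have equal lengths in the pair. Cfb had 29962 and 17927 counts, or 153 and 102 TPM (127 ± 36.2, SD, n = 2). C2 had 3698 and 2639 counts, or 14.7 and 14.4 TPM (14.5 ± 0.191, SD, n = 2). The alternative pathway protease thus stood 10.4 times above its neighbour in TPM in replicate 1 and 7.07 times in replicate 2. The ratio was smaller in both libraries with gene counts divided by the effective length of the longest model. Cfb then came to 93.5 and 74, and C2 to 12.1 and 11.4.

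Gm20547, a gene model that overlaps exons of both C2 and Cfb on the same strand, had 56.3 and 10.3 estimated counts. Its transcripts hold 81% of the 101-nt windows of the longest Cfb model and 53.1% of those of C2, so the division of reads between the 3 models was an estimate. In the mm9 junction data, where each entry counts reads across an intron, 1 junction with 1 read led from C2 into Cfb.

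Masp1 encodes the proteases of the lectin pathway, MASP-1 and, by another 3' end, MASP-3, which activates factor D. It lies on chr16:23449417-23520815 (ENSMUSG00000022887, minus strand) and had 2250 and 1650 counts, or 7.02 and 6.81 TPM (6.91 ± 0.148, SD, n = 2). Its level was close in the 2 libraries. The mm10 tables hold 1 Masp1 model of 2752 nt and so cannot separate the 3' ends. No source used here gives the exons of this model, and its identifier stands for 11 exons on mm9 and 16 in GENCODE M21, so which end's reads its counts and TPM hold is unknown. The junction reads can, since both ends follow exon 10. The mm9 tables number their replicates without naming the libraries, so these are called the first and second mm9 replicate here. Into the single large terminal exon (chr16:23470804-23474946 on mm9) 244 reads were counted, 147 in the first mm9 replicate and 97 in the second. Into the first of the 6 exons of the other end (chr16:23465239-23474946) 229 reads were counted, 122 and 107. The single exon thus took 51.6% of these 473 reads (Wilson 95% interval 47.1% to 56.1%), with 54.6% in the first and 47.5% in the second mm9 replicate. The interval spans equal use of the MASP-3 end (the single exon) and the MASP-1 end, so a preference was not detectable at this depth. Their first bases are shown because the choice between them sets the protease domain: 30 bases of exon 10 in lower case, then 60 bases of each end in capitals (GENCODE M21, mm10 minus strand, within chr16:23470671-23474903 and chr16:23465106-23474903).
Single terminal exon: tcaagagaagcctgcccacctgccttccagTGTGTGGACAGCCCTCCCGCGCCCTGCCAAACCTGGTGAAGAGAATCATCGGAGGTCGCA
6-exon end: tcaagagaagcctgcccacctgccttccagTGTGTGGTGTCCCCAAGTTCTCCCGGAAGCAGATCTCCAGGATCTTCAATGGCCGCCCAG

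Introns 1 to 9 of Masp1, which both forms use, had a median of 340 reads (238 to 805), and introns 11 to 15, which only the 6-exon end uses, a median of 122 (59 to 298). GENCODE M21 also lists Masp1 models of 9 and 5 exons that end before exon 10. Reads from such models, if present, would count among introns 1 to 9 too. In the M21 models exons 2 to 10 are identical in the 2 forms, and 881 coding nt follow exon 10 in the single exon and 794 nt in the 6-exon end. The mm9 transcript table gave the 11-exon model 57.6% and 57.5% of Masp1 RPKM and the 16-exon model 42.4% and 42.5%.

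Cfi encodes factor I, the plasma protease that inactivates C3b and C4b and so restrains the cascade. It lies on chr3:129835884-129875332 (ENSMUSG00000058952, plus strand) and had 20335 and 9725 counts, or 86.6 and 55.5 TPM (71.1 ± 22, SD, n = 2). Cfi was the third highest of the 9 genes, above both C2 and C4b, in both libraries. The mm10 tables hold a single Cfi model, and the junction reads showed 2 unannotated variants in its short exons 7 (27 nt) and 8 (21 nt). An acceptor 3 nt inside exon 7 (chr3:129561742-129564886 on mm9) had 356 reads against 2488 at the annotated acceptor, a share of 12.5% (Wilson 95% interval 11.4% to 13.8%). It was 12.5% in the first mm9 replicate and 12.6% in the second. Direct joining of exon 7 to exon 9 (chr3:129564911-129568258), which leaves out exon 8, had 226 reads against 1978 for exon 7 to exon 8, a share of 10.3% (9.06% to 11.6%), with 10.1% and 10.6% in the 2 mm9 replicates.

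Both variants recurred at nearly the same share in each replicate, and each keeps the reading frame, since 3 and 21 nt are whole codons and no stop codon arises before the annotated end. The junction of exons 6 to 9 is shown in the annotated form and both variants, within mm10 chr3:129858800-129865364 on the plus strand. Capitals mark the first 3 bases of exon 7, which end in AG like an acceptor, and all of exon 8, wherever they are present.
Annotated: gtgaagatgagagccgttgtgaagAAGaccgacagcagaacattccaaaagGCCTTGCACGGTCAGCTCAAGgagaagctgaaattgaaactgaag
Acceptor moved 3 nt: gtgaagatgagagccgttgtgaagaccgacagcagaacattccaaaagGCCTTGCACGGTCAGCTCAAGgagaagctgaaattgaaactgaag
Exon 8 left out: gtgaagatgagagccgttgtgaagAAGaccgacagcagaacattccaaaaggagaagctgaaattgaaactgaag

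C8a and C9 encode parts of the membrane pore: the alpha chain of C8, which inserts into the membrane, and C9, which polymerises to a ring. C8a (ENSMUSG00000035031, chr4:104815679-104876398, minus strand) had 4000 and 2066 counts, or 11.9 and 6.41 TPM (9.17 ± 3.9, SD, n = 2). C9 (ENSMUSG00000022149, chr15:6445327-6498751, plus strand) had 258 and 98 counts, or 1.27 and 0.57 TPM (0.92 ± 0.495, SD, n = 2), and was the lowest of the 9. C8a exceeded C9 9.39 times in replicate 1 and 11.2 times in replicate 2.

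Part of the C8a junction reads came from a splice donor upstream of the annotated first exon. In the junction data 121 reads left from a donor whose first intron base lies 10 nt upstream of the annotated start (mm9 chr4:104538153-104549013 into exon 2 and chr4:104535346-104549013 into exon 3), and 80 reads left from the annotated first exon. The upstream donor thus held 60.2% of 201 reads (Wilson 95% interval 53.3% to 66.7%), with 55.5% in the first mm9 replicate and 68.5% in the second. Of its reads 54 joined exon 2 and 67 joined exon 3, while the annotated donor of the first exon gave 64 and 10. A donor within that exon gave 5 more into exon 2, and the remaining read came from another junction of it. The bases around this donor are shown because the site lies outside the annotated gene. They come from the RefSeq promoter of C8a (GRCm38.p6, chr4:104876394-104876423, minus strand), with the first 2 bases of the intron in capitals.
C8a upstream donor: tctatggcttctaagGTaggctcttctcgt

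The transcript tables put much of the TPM of several genes on short models. In C3 the longest model of 5136 nt (ENSMUST00000024988) held 96.5% of the gene's counts in replicate 1 and 95.8% in replicate 2, but 65.7% and 55.5% of its TPM. A model of 554 nt (ENSMUST00000177046) held 3.3% and 3.55% of the counts and 32.5% and 39.4% of the TPM. All 554 nt of this model also lie in exons of the longest one, and it differs by an intron that joins exon 2 to exon 31. No read in the mm9 junction data spanned exon 2 to exon 31, against 4246 reads from exon 2 to exon 3 and 5793 from exon 30 to exon 31. In Hc the gap was wider. Its longest model (ENSMUST00000028233, 5445 nt) held 87% and 92.5% of counts but 35.4% and 46.6% of TPM, and 4 models under 1000 nt held 64.6% and 53.4% of TPM. GENCODE M21 lists these as a retained intron, 2 processed transcripts and a short coding model.

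Cfb had no dominant model. ENSMUST00000154526 (2397 nt) held 39.4% and 49.5% of TPM and ENSMUST00000128767 (2751 nt) 16.5% and 21.6%, both with 18 exons, and 4 models under 1000 nt held 44% and 27%. In C2 the longest model held 66.3% and 64.6% of TPM, in C4b 84.8% and 82.4%, in C9 85% and 100%, and in C8a 45.1% and 59%. A C8a model without exon 2 (ENSMUST00000106808) held 29% and 39.5%. It led in the mm9 transcript table with 65% and 71% of RPKM. With gene counts divided by the effective length of the longest model, on the scale of the deposited TPM, C3 came to 148 and 123, Cfb to 93.5 and 74 and Hc to 22 and 14. The deposited mean TPM was 1.59 times this value for C3, 1.52 times for Cfb and 2.27 times for Hc, and between 1 and 1.24 times for the other 6 genes. The order of the 9 genes was the same on this scale.

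**Figure D2:**
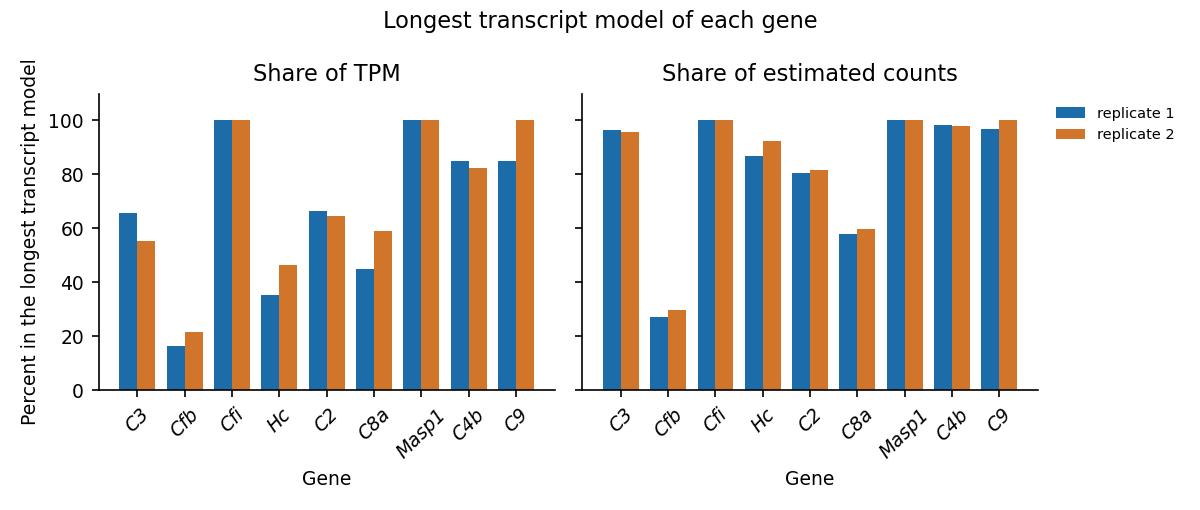
Percent of each gene's TPM (left) and of its estimated counts (right) that the longest transcript model holds; blue bars are replicate 1 and orange bars replicate 2. For C3 the bars fall from 96.5% and 95.8% of counts to 65.7% and 55.5% of TPM, and for Hc from 87% and 92.5% to 35.4% and 46.6%; Cfi and Masp1 have 1 model each.

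Junction reads gave a view of level and of evenness along each gene that does not use the transcript models' division of reads. The median reads per intron of the longest model were 4903 for C3, 2832 for Cfb, 2264 for Cfi, 568 for Hc, 409 for C2, 306 for Masp1, 214 for C8a, 80 for C4b and 33 for C9. This is the order of TPM with C8a and Masp1 exchanged. Reads were found across every intron of the longest models of 8 genes, and across 39 of 40 in C3. With the introns of each gene divided into 3 blocks of like number, the mean of the last block over that of the first was 2.21 in Hc, 1.82 in C8a, 1.71 in C4b and 1.66 in C3, so that reads were denser toward the 3' end. It was 1.18 in C2, 1.13 in C9, 0.932 in Cfi and 0.808 in Cfb. The direction did not hold in C9, at 0.847 with 2 blocks in place of 3, nor in Cfi, at 1.11 in the first and 0.664 in the second mm9 replicate. The first block of C8a leaves out the reads from the upstream donor, 54 into exon 2 and 67 into exon 3, which raises its ratio. With 2 blocks the ratio of C8a was 1.46. The last block of C3 includes intron 29, which had no read at its annotated place but 4937 at a placement described below, so the ratio of C3 is lowered. Masp1 was lowest at 0.364, and its last block belongs to the 6-exon end alone. Cfi stood out at its first intron with 5856 reads, against 1737 to 3065 at the other 12.

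**Figure D3:**
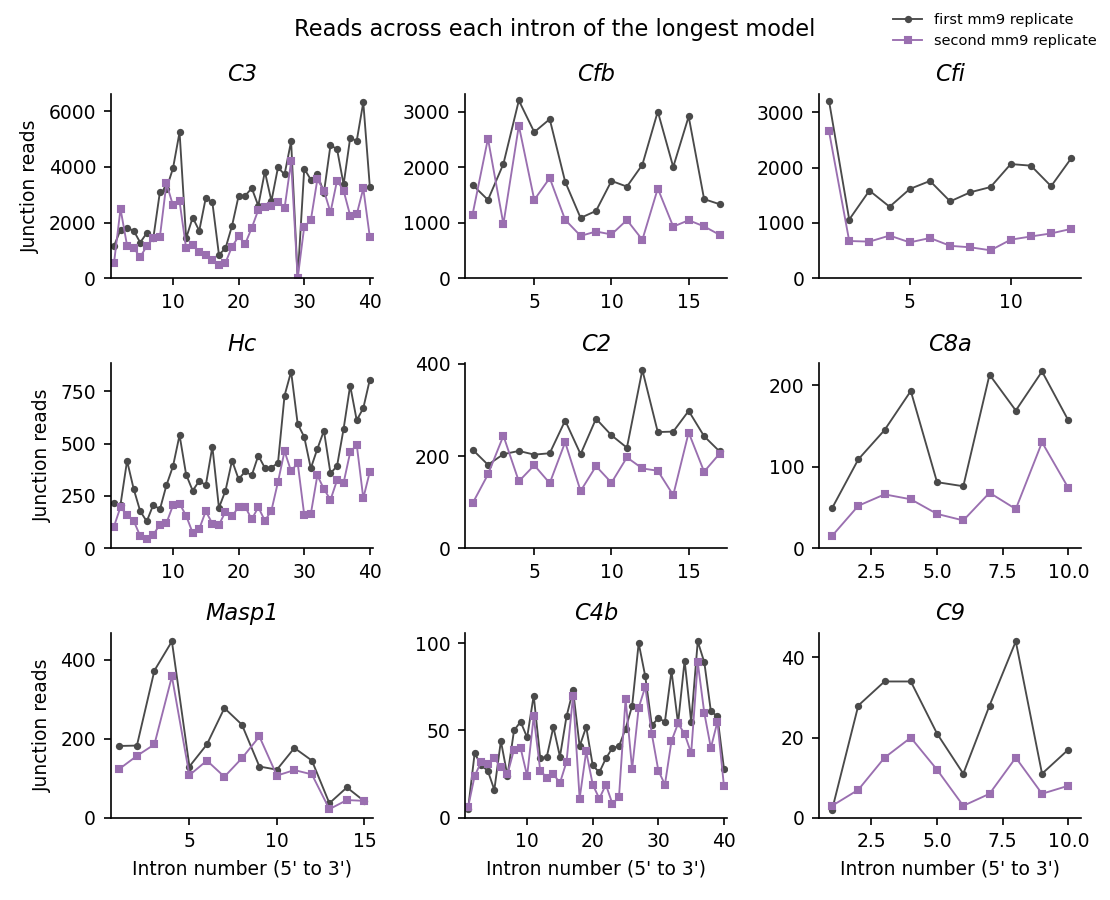
Reads across each intron of the longest model of the 9 genes, numbered from the 5' end, in the first (grey) and second (purple) mm9 replicate; the vertical scale differs between panels. Reads of Hc are higher toward the 3' end, those of Masp1 are lowest at introns 13 to 15, Cfi has 5856 reads over both replicates at intron 1, and C3 has none at intron 29.

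The empty position in C3 was intron 29. The annotated intron (mm9 chr17:57349747-57350994) had no read, while an intron of equal length placed 2 nt lower in coordinate (chr17:57349745-57350992) had 4937, of which 2849 were in the first and 2088 in the second mm9 replicate. The median over the introns of C3 was 4903. The intron's own bases were not used here, so it was not tested whether both placements spell the same RNA. Exon 30 begins with the 2 bases in capitals (GENCODE M21, mm10 minus strand, within chr17:57210304-57211591).
C3 exon 29 to 30: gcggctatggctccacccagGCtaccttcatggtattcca

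That shifted intron made up most of the 5927 unannotated junction reads of C3, and the other 320 unannotated junctions held 990 reads. Among these, a donor extended exon 17 by 76 nt (chr17:57359626-57360319) with 170 reads, or 11.3% of the reads into exon 18 (Wilson 95% interval 9.83% to 13%). Across the 9 genes 214 annotated junctions carried reads. Unannotated junctions inside a gene held between 0.581% of its junction reads (Cfb) and 2.95% (C3).

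C4b has a close copy, C4a, whose protein is the sex-limited relative of C4 in mice. C4a had 115 and 72.1 estimated counts, so C4b exceeded it 13.5 times in replicate 1 and 15.2 times in replicate 2. The longest models of the copies aligned over 5366 nt with 96.2% identical bases, and 16.3% of the 101-nt windows of C4b also occur in C4a, so a part of the reads cannot be assigned. In the mm9 junction data 47 unannotated junctions with 809 reads joined C4b to the C4a locus, which was 18.9% (Wilson 95% interval 17.8% to 20.1%) of their sum with the annotated C4b junctions, at 19.6% and 18% in the 2 mm9 replicates. Of these reads 793 lay on junctions that used an annotated splice site of C4b. The largest (mm9 chr17:34870517-34951266) had 88 reads against 163 for the annotated intron that ends at the same acceptor, at the start of C4b exon 28. The sequences around that exon boundary are shown because they differ at 4 of 60 bases, in capitals (GENCODE M21, mm10 minus strand, within chr17:34733542-34733689 for C4b and chr17:34814204-34814351 for C4a). Whether these reads were misplaced between the copies was not tested.
C4b: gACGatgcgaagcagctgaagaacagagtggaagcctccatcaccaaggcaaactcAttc
C4a: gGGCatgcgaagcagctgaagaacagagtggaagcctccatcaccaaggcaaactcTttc

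The 2 libraries were compared gene by gene with an exact two-sided binomial test of the counts, adjusted by Benjamini-Hochberg over all 17906 genes; calls needed an adjusted p below 0.05 with a difference of 2-fold or more. This test compares these 2 libraries and not conditions. None of the 9 complement genes was called, while 8.36% of all tested genes were. At an unadjusted p under 0.05 and 2-fold none passed either, and edgeR's exact test with the common dispersion of all genes called none, with none at an unadjusted p under 0.05. At any fold, 8 of 9 had an adjusted p under 0.05, against 60.7% of all genes, 5 lower in replicate 2 (31% of all genes) and 3 higher. Most of the genes thus differed by more than counting error. The spread that edgeR used, a coefficient of variation of 25%, was estimated over all genes from these same 2 libraries. None of the 9 passed its test, which does not show that their differences lie within that spread.

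Cfi, Hc and C8a were lower in replicate 2 by similar amounts, with log2 differences of -0.42 (exact 95% interval -0.46 to -0.39), -0.38 (-0.43 to -0.34) and -0.31 (-0.39 to -0.24). C9 had the largest difference, 1.68-fold lower in replicate 2 with a log2 of -0.75 (-1.11 to -0.41, adjusted p = 1.60e-05 by the exact binomial test), on 258 and 98 counts. Cfb was lower by a log2 of -0.10 (-0.13 to -0.07). C2, C4b and Masp1 were higher in replicate 2 by 0.15 (0.08 to 0.23), 0.14 (0.02 to 0.25) and 0.19 (0.10 to 0.29). The median over the 9 genes was -0.10, beside -0.01 over all tested genes. With spike-in totals as library sizes the median of all genes moved up by 0.66, and C9 alone stayed lower in replicate 2; relative to the median of all genes the same 5 genes were lower. On the same TMM scale the summed counts of the markers differed by a log2 of -0.18 for hepatoblasts and hepatocytes, -0.27 for stellate and mesenchymal cells, -0.02 for granulocytes, -0.01 for endothelium, 0.07 for macrophages and 0.19 for red cells. The gut and pancreas markers, summed TPM 1.77 and 2.82, differed by 0.79. Markers within a list went different ways, and abundant ones weigh most in its sum. In replicates 1 and 2 Afp had 7357 and 4376 TPM but Apoa2 2740 and 3134. S100a8 had 602 and 397 TPM but Mpo 136 and 159. The part of these cell types in the differences between the libraries was not tested.

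In deposited TPM all 9 genes were lower in replicate 2, including C2, C4b and Masp1, whose counts relative to library size were higher there. Spike-ins, globins and mitochondrial genes took 54.6% of TPM in replicate 1 and 61.5% in replicate 2. With TPM recomputed without them, 5 genes were lower and 4 higher in replicate 2. The effective length of the single Masp1 model of 2752 nt was 2539 nt in replicate 1 and 2450 nt in replicate 2.

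**Figure D4:**
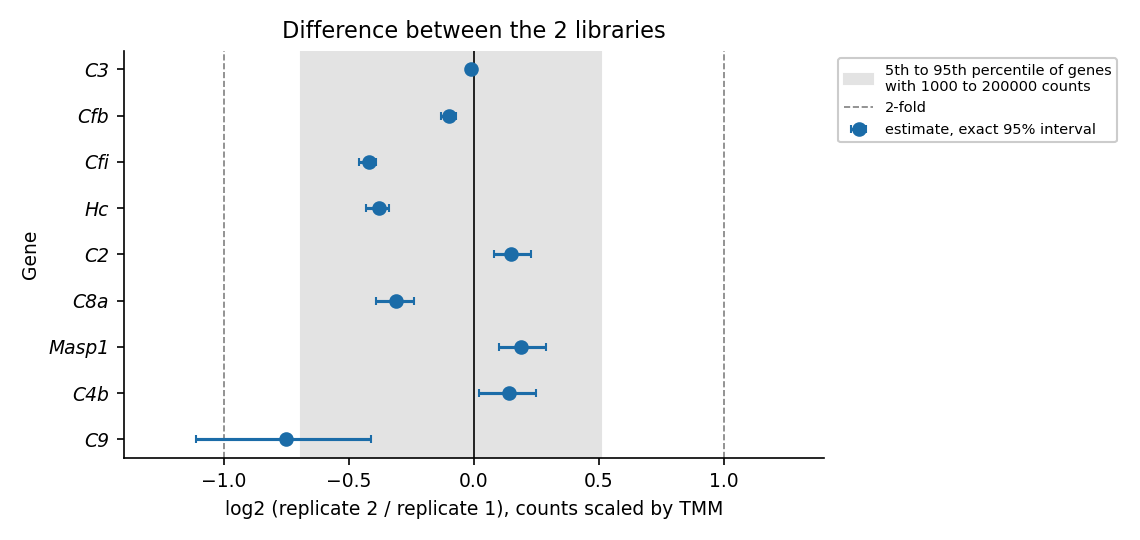
Log2 ratio of replicate 2 to replicate 1 for each gene from counts scaled by TMM, with exact 95% intervals; the grey band holds the 5th to 95th percentile (-0.69 to 0.51) of genes with 1000 to 200000 counts and dashed lines mark 2-fold. All points lie inside 2-fold, although the interval of C9 reaches -1.11; C9, which has fewer counts than the genes of the band, lies at -0.75 and the others lie within the band.

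Of 46 other complement genes, grouped by role, 30 had at least 1 TPM in each library and 17 at least 10 TPM. Of the 40 with enough counts 2 were called between the libraries, 1 in each direction, beside 8.36% of all tested genes. These were Cfd, at 24 and 3 counts, and Itgax, at 43 and 60 counts, which are named here after their values were seen. Neither passed edgeR's exact test (adjusted p = 0.411 for Cfd and 0.95 for Itgax). The median log2 difference of the 40 was -0.04. Of 9 pattern recognition genes 8 reached 1 TPM, led by C1qb at 55.5 and 66.2 TPM, C1qc at 32.7 and 37 TPM and Fcna (ficolin A, a lectin) at 22.4 and 27.3 TPM. The third C1q chain, C1qa, added after its values were seen, had 22.9 and 26.1 TPM. The log2 differences of the C1q chains were positive, at 0.39 (0.34 to 0.44) for C1qb, 0.33 (0.27 to 0.40) for C1qc and 0.32 (0.23 to 0.41) for C1qa, and none reached 2-fold.

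Among the initiating proteases 3 of 6 reached 1 TPM. C1s1 had 37.7 and 34.5 TPM, Masp2 20.1 and 29.6 TPM and C1ra 8.18 and 5.13 TPM. Masp2 thus exceeded Masp1 in TPM in both libraries. Its counts were closer, at 2610 and 2286 against 2250 and 1650 for Masp1. The effective length of Masp2 was 1030 and 781 nt, against 2539 and 2450 nt for Masp1, so short models weigh on this order.

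The further components included the other 2 chains of C8, at higher levels than C8a. C8g had 24.9 and 30.5 TPM, C8b 20.8 and 16.6 TPM and Cfp (properdin, which stabilises the alternative convertase) 16.2 and 19.7 TPM. The pore components between C5 and C8 were low: C6 had 0.61 and 0.24 TPM and C7 had 0.01 and 0 TPM, with 3 counts and 0 counts. Hc, C8a, C8b and C8g thus stood at 6.41 TPM or more in both libraries, while C6, C7 and C9 stayed at or under 1.27 TPM. C6 and C7 are named here after their values were seen.

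Of 10 soluble regulators 8 reached 1 TPM. Vtn (vitronectin, which blocks pore insertion) was at 388 and 356 TPM, above C3. Cpn1 (a carboxypeptidase N subunit that trims the anaphylatoxins) had 47.5 and 50.3 TPM and Clu (clusterin) 44.9 and 42.6 TPM. Cfhr3 had 0 counts in both libraries. Of 6 membrane regulators, which protect the body's own cells, 5 reached 1 TPM, with Cr1l at 39 and 34 TPM, Cd59a at 39.5 and 29.5 TPM and Cd55 at 15 and 10.5 TPM. Receptors were the lowest group, with 3 of 9 at 1 TPM, a median of 0.53 and 0.56 TPM, and none at 10 TPM. The highest was Itgb2 at 8.37 and 7.15 TPM, followed by Itgam at 2.64 and 1.99 TPM and Cd93 at 1.46 and 1.36 TPM.

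**Figure D5:**
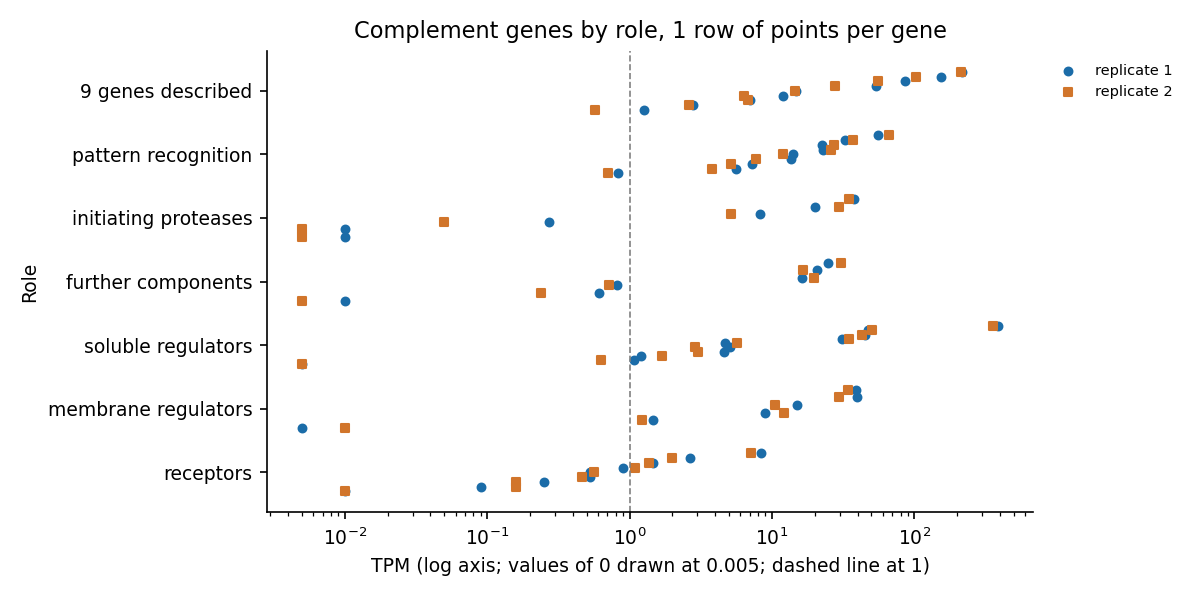
TPM on a log axis of the 9 genes described and of 46 other complement genes by role, each gene at its own height, with circles for replicate 1 and squares for replicate 2; values of 0 are drawn at 0.005 and the dashed line marks 1 TPM. The 9 genes span 217 to 0.57 TPM, Vtn is highest of all at 388 and 356 TPM, and most receptors lie left of the line.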

How the data were processed

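The 2 libraries were quantified separately on mm10 with annotation M4, per the deposited note; aligner and counter: not given in the sources used here. The authors deposited estimated counts made from these transcriptome alignments, TPM and FPKM per gene and transcript, and each transcript's percent of its gene's TPM. On mm9 they deposited RPKM for Ensembl models and junction read counts with a reproducibility score (the irreproducible discovery rate). Other deposited tables (de novo models and contigs) were not used here.

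Estimated counts were rounded, scaled by TMM (edgeR 4.0.16, R 4.3.3) and compared by an exact two-sided binomial test in genes with at least 10 counts in both libraries together, with Benjamini-Hochberg adjustment; 0.5 was added to each count for fold changes. edgeR's exact test and DESeq2 1.42.0 size factors were alternatives. The test was checked on simulated counts with counting noise only, which is the noise it assumes. That check cannot show its error rate under variation between libraries. Figures and shares used Python 3.11.15 with scipy 1.17.1, and share intervals are Wilson 95% intervals.

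A 3' to 5' ratio was planned on mm9 exon RPKM, but in 258 of 271 exons this value was the sum of transcript RPKM within 2%, so junction reads were used. All 9 genes are named, with the 3 highest of each role list, any listed at 0, overlapping models and C4a; others are marked. Members and lists were chosen with earlier results of these data known. Sequences come from GENCODE M21 transcripts and RefSeq promoters, both GRCm38.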

Additional observations from a re-analysis of the deposited data

How the results depend on the processing

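Of the alternative values 143 stayed within the spread, the interval or the 1.5-fold limit for counts, 67 moved and 8 changed direction. Part of these labels was fixed by the rule. With 2 libraries, the level or leading share in either alone always lies within the SD around their mean. Levels in FPKM, mm9 RPKM or recomputed TPM were set against the SD of TPM, so they can move by the change of unit alone. The tally therefore does not measure how stable the results are. With spike-in totals as library sizes the log2 difference of replicate 2 over replicate 1 became positive in C3 (0.65), Cfb (0.56), C8a (0.35), Hc (0.28) and Cfi (0.24), and library totals without globin and mitochondrial genes turned C3 to 0.05. The ratio of 3' to 5' junction reads changed direction in C9 with 2 blocks of introns in place of 3 (0.847) and in Cfi in the first mm9 replicate (1.11), both chosen after seeing the data. With a 1.5-fold limit 1 of the 9 genes was called between the libraries (C9; 17.5% of all genes), and at any fold 8. These spike-in totals called 3887 genes (21.7%) in place of 1497, none of the 9, and edgeR's exact test called 242 (1.35%). By mm9 RPKM 4 of the 9 genes changed place in the order of levels (C2 with Hc, Masp1 with C8a), and by TPM of the longest model alone, chosen after seeing the data, also 4. Leaving out a library in turn moved 0 to 2 (C8a and Masp1, without replicate 1). Unannotated junctions within the genes numbered 692, but 29 at an irreproducible discovery rate of at most 0.1, 10 at 0.01 and 30 with at least 10 reads. Of 55 complement genes 38 were detected at 1 TPM and 22 at 10 TPM. By mean mm9 RPKM share the identifier of the leading model was the same in 8 genes and another in C8a. It was the same in 6 in the first mm9 replicate alone (not C4b, C8a and C9) and in 7 in the second (not Cfb and C8a), and for Masp1 the identifier has other exons on mm9. The cause of these changes was not tested. Leaving out a library could not be applied to the comparison of the 2 libraries. No paired analysis was possible because there is 1 group. Depth limits C9 most, with 98 counts in replicate 2.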
